A study of Mus musculus with 17 samples.

Results

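Transcripts of the CaMKK and AMPK kinase cascade were followed in mouse prefrontal cortex through 10 genes, Camkk1, Camkk2, Stk11, Cab39, Prkaa1, Prkaa2, Prkab1, Prkab2, Prkag1 and Prkag2, taken as the rows with these symbols among the 56953 genes of the deposited count table. All 10 passed the filter on low counts and were among the 23062 genes tested. Bulk RNA sequencing covered 5 WT, 6 hTau and 6 CgA-KO/hTau libraries from mice on the B6C3F1/J background, all fed regular chow. Their age was 8 months by the labels and by the study's methods, whereas a figure legend of the study gives a different age for the cortices. WT mice carried neither the transgene nor the knockout. hTau mice, the PS19 line, carried human tau of the 1N4R isoform with the P301S mutation, driven by the Prnp promoter. CgA-KO/hTau mice carried the same transgene and lacked Chga, the gene of chromogranin A (CgA), in the whole body from birth. The 3 comparisons asked how the cascade genes differed in tau transgenic cortex, how they differed when CgA was absent as well, and how the double mutant cortex stood against WT. Because hTau minus WT and CgA-KO/hTau minus hTau share the 6 hTau libraries, opposite signs in them are not independent observations.

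CaMKK1 and CaMKK2 are kinases that calcium-bound calmodulin switches on, and CaMKK2 can phosphorylate the activation loop of AMPK, the energy-sensing AMP-activated protein kinase. The other main kinase at that site is LKB1, encoded by Stk11, which works in a complex with a pseudokinase and MO25α, encoded by Cab39. AMPK itself is a trimer of a catalytic α subunit, a scaffolding β subunit that binds glycogen, and a γ subunit that senses AMP and ATP. In neurons the CaMKK2 branch links calcium entry to AMPK, and AMPK is one of the kinases that can phosphorylate tau.

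The promoters of the CaMKK genes are shown because both genes differed between genotypes, and each window runs from 250 bases before to 50 bases after the RefSeq start (GRCm38.p6). All 10 members had at least 1 such window, 12 in all. Capitals mark the core of a cAMP response element (CRE core, TGACG or CGTCA) or a GC box (GGGCGG or CCGCCC), searched on both strands. The Camkk1 window, chr11:73018738-73019037 on the plus strand, held 1 CRE core at position −166 and 3 GC boxes. The Camkk2 window, chr5:122779361-122779660 on the minus strand, held 1 GC box at −89 and no CRE core.
Camkk1 promoter: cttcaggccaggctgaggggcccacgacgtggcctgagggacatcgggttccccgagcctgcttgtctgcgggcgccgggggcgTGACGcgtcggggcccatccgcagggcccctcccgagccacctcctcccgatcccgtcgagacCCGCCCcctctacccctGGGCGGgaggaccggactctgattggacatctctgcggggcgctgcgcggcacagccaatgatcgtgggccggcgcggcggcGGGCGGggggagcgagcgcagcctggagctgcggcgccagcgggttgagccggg
Camkk2 promoter: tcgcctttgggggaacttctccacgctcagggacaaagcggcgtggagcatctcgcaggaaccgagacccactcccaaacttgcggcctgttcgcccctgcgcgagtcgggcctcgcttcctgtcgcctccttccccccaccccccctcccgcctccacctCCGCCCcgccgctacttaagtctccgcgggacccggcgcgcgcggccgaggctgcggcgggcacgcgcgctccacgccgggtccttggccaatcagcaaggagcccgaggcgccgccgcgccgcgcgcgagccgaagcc
A CRE core stood in a window of 5 of the 10 members (Camkk1, Prkaa2, Prkag1, Stk11 and Cab39) and in 20.8% of the 32851 RefSeq promoters, and a GC box in 9 of 10 members, all but Prkab1, against 35.7%. None of the 10 held a full CRE (TGACGTCA, which contains a core on both strands), an E-box (CACGTG) or a TATA box (TATAAA), which were present in 1.79%, 7.15% and 13.6% of promoters. Such matches describe letters in these windows and were not tested against the genotypes.

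The list holds 4 paralogue pairs, and the longest stretch that the coding sequences of each pair share is shown because the ratios given further on need reads that tell the partners apart.
Camkk1 and Camkk2: gaggtcctggatga
Prkaa1 and Prkaa2: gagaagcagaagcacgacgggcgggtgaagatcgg
Prkab1 and Prkab2: ggagagcatcagtacaagttctt
Prkag1 and Prkag2: atcctcaagttcctc
These runs were 14, 35, 23 and 15 bases long, and no stretch of 50 bases was common to the transcripts of any pair. Stretches of 50 bases were shared only with genes on the opposite strand, which covered 28.8% of those in Prkag1 (the antisense gene B130046B21Rik), 11.5% in Prkag2 (Prkag2os2 and Prkag2os1) and 3.84% in Stk11 (Cbarp). Whether the counting used the strand is not stated, so the counts of these 3 members are uncertain to that extent.

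Total deposited counts per library were 8838334 to 227651681, the lowest in WT replicate 4. Levels are given as CPM, the count of a gene scaled to a common library size after TMM normalization. Differences between genotypes were tested in edgeR (quasi-likelihood), and a gene was called where its p, adjusted by Benjamini-Hochberg over the 23062 genes, was under 0.05. Chga was at 0 counts in all 6 CgA-KO/hTau libraries, against 162 to 177 CPM in hTau and 152 to 180.1 CPM in WT, and Prnp, whose promoter drives the transgene, was at 1974 to 2368 CPM in hTau, 1236 to 2079 CPM in CgA-KO/hTau and 748 to 914 CPM in WT. The libraries also differed in ways that their labels do not give. The summed CPM of 15 markers of striatum was 1387 to 4600.1 in WT, 412 to 546 in hTau and 350 to 2845 in CgA-KO/hTau, with Isl1 at 0 in every hTau library. The 7 markers of cortical excitatory neurons summed to 982 to 2430 CPM in WT, 1689 to 1933 in hTau and 1103 to 1785 in CgA-KO/hTau, and were thus detected in every library. Mitochondrial genes took 3.53% to 7.94% of counts in WT, 2.56% to 4.59% in hTau and 3.84% to 18.2% in CgA-KO/hTau. The Y-linked gene Ddx3y stood at 49.8 to 76.8 CPM in all libraries numbered 1 to 3 and did not exceed 0.058 CPM elsewhere. By the study's text each genotype included males and females, and the labels do not give the sex of a library. In bulk tissue, fewer cells of a type and less RNA per cell cannot be told apart.

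Among the 10 genes, Camkk2 was higher in hTau than in WT, Camkk1 and Camkk2 were lower in CgA-KO/hTau than in hTau, and no other difference passed the test. In hTau minus WT 1 of the 10 members was called, where 5.9% of all genes tested were called in either direction and 1.95% were called higher. In CgA-KO/hTau minus hTau 2 of 10 members were called, both lower, against 9.72% of all genes in either direction and 4.22% lower. In CgA-KO/hTau minus WT none of the 10 was called by edgeR, against 6.46% of all genes, with 2 members at an unadjusted p under 0.05 and 1 called by DESeq2. The median log2 fold change of the members was 0.18, −0.16 and −0.12 in these comparisons, and that of all genes tested was 0.01, 0.03 and 0.01. The limits of the study's gene clusters (absolute log2 fold change over 0.5 and p under 0.01 before adjustment) were applied here to the edgeR values. The study used DESeq2, so passing here is not membership in its clusters. By these limits Camkk2 passed in hTau minus WT (7.39% of all genes passed) and both CaMKK genes passed in CgA-KO/hTau minus hTau (9.73%).

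**Figure D1:**
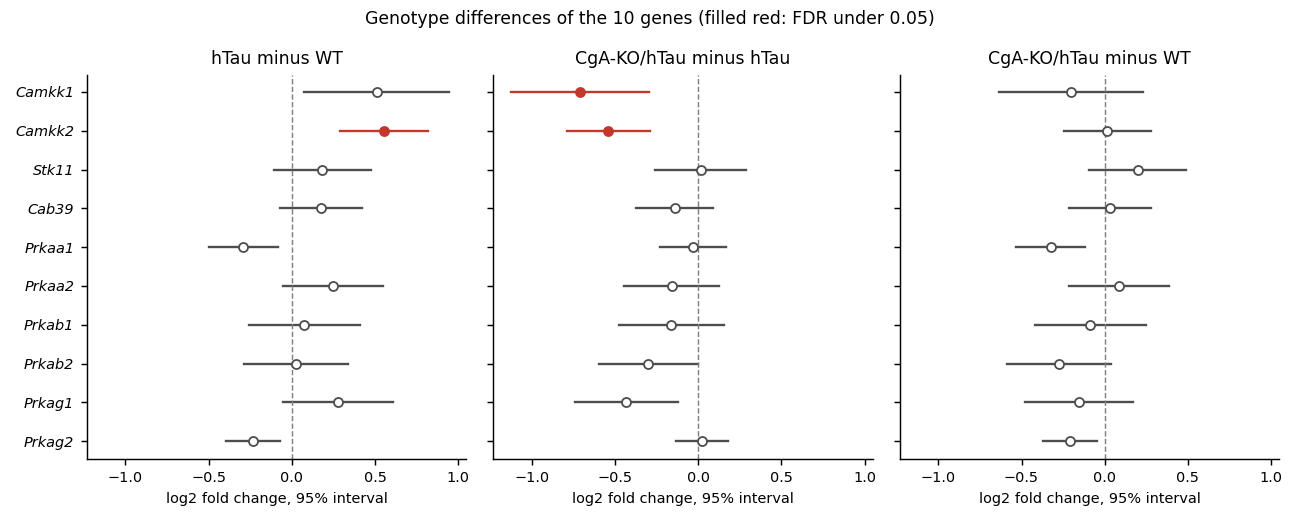
Log2 fold change of each of the 10 genes in hTau minus WT, CgA-KO/hTau minus hTau and CgA-KO/hTau minus WT, with lines for the 95% interval from the edgeR fit and filled red points for an adjusted p under 0.05. Camkk2 stands at 0.56 and −0.54 in the first and second comparison, Camkk1 at −0.71 in the second, and all other points are open.

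Levels between genes were compared per kb of merged exons. Cab39, Camkk1 and Camkk2 stood highest in every genotype, with mean levels of 36.9, 30.2 and 25.8 CPM per kb in WT, 41.7, 43.0 and 37.9 in hTau and 37.7, 26.3 and 26.0 in CgA-KO/hTau. Their SDs were 1.94 to 8.76 CPM per kb, and neighbours in the order of levels overlapped in every genotype. Only in WT did 2 of these genes stand clear of each other, where Cab39 ranged from 35.0 to 39.8 CPM per kb and Camkk2 from 20.4 to 30.6. Stk11 and the AMPK subunits other than Prkab1 formed a lower tier with means of 7.27 to 12.0 CPM per kb, in which neighbours overlapped in every genotype. Prkab1, the β1 scaffold, was the lowest member in every genotype, at 4.08 ± 0.87 CPM per kb in WT (SD, n = 5), 4.31 ± 0.74 in hTau and 3.86 ± 0.65 in CgA-KO/hTau (SD, n = 6 each).

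**Figure D2:**
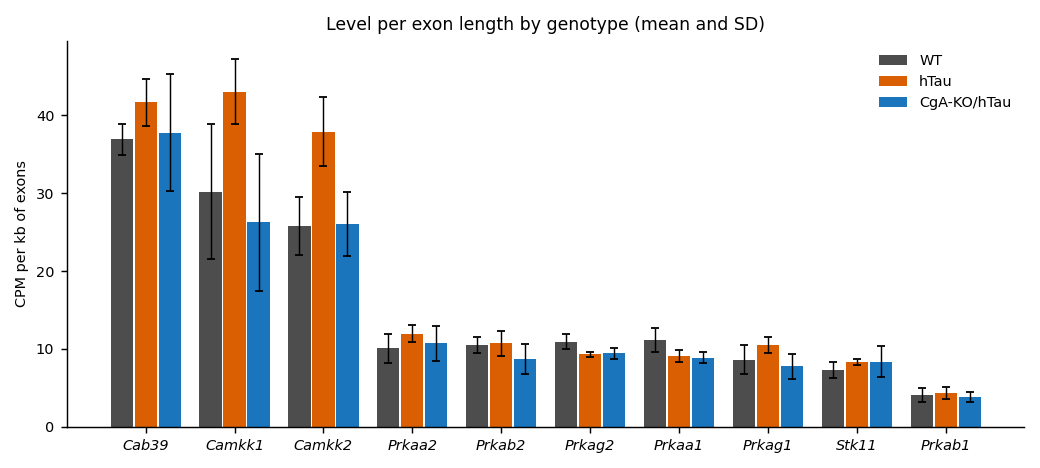
Mean CPM per kb of merged exons of each member by genotype, with bars from 0 and error bars of 1 SD (5 WT, 6 hTau and 6 CgA-KO/hTau libraries). Cab39, Camkk1 and Camkk2 have means of 25.8 CPM per kb or more in every genotype, and Prkab1 has the lowest mean, 3.86 to 4.31 CPM per kb.

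Camkk2 (ENSMUSG00000029471.14, chr5:122731170-122779409, minus strand, GENCODE M21 on GRCm38) encodes CaMKK2, which can phosphorylate AMPK. Its WT libraries, replicates 1 to 5, held 334, 291, 293, 267 and 223 CPM. In hTau the lowest, median and highest libraries held 354, 412 and 472 CPM, and in CgA-KO/hTau 241, 273 and 356 CPM. Every hTau library was above every WT library, which was true of 5.13% of all genes tested (9.52% in either direction). Against CgA-KO/hTau the ranges overlapped slightly, since CgA-KO/hTau replicate 4 at 356 CPM exceeded the lowest hTau library. Camkk2 was 1.47-fold higher in hTau than in WT (log2 fold change 0.56, SE 0.13, edgeR adjusted p = 0.0133) and 1.46-fold lower in CgA-KO/hTau than in hTau (−0.54, SE 0.12, edgeR adjusted p = 0.0116). Between CgA-KO/hTau and WT the log2 fold change was 0.01 with a 95% interval of −0.25 to 0.28. Without WT replicate 5, the lowest WT library, the call in hTau minus WT was lost (log2 fold change 0.48, edgeR adjusted p = 0.0501).

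Camkk1 (ENSMUSG00000020785.18, chr11:73019008-73042073, plus strand), the other CaMKK gene, showed a wider spread. Its WT libraries held 139, 137, 125, 62.5 and 99.0 CPM. In hTau the lowest, median and highest libraries held 148, 157 and 190.5 CPM, and in CgA-KO/hTau 74.1, 82.3 and 158 CPM. All hTau libraries were above all WT libraries, but the difference did not pass the adjusted test (log2 fold change 0.51, SE 0.21, edgeR adjusted p = 0.165). Of the 6 CgA-KO/hTau libraries, 5 were below every hTau library, at 74.1 to 113 CPM, and replicate 4 at 158 CPM was within the hTau range. Camkk1 was 1.64-fold lower in CgA-KO/hTau than in hTau (log2 fold change −0.71, SE 0.20, edgeR adjusted p = 0.0322), and the difference between CgA-KO/hTau and WT was −0.20 with a 95% interval of −0.64 to 0.23. The call against hTau was lost without any 1 of hTau replicates 1, 2, 3, 5 and 6 and CgA-KO/hTau replicates 1, 2, 3 and 6, with log2 fold changes of −0.73 to −0.64 and edgeR adjusted p of at most 0.0791.

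**Figure D3:**
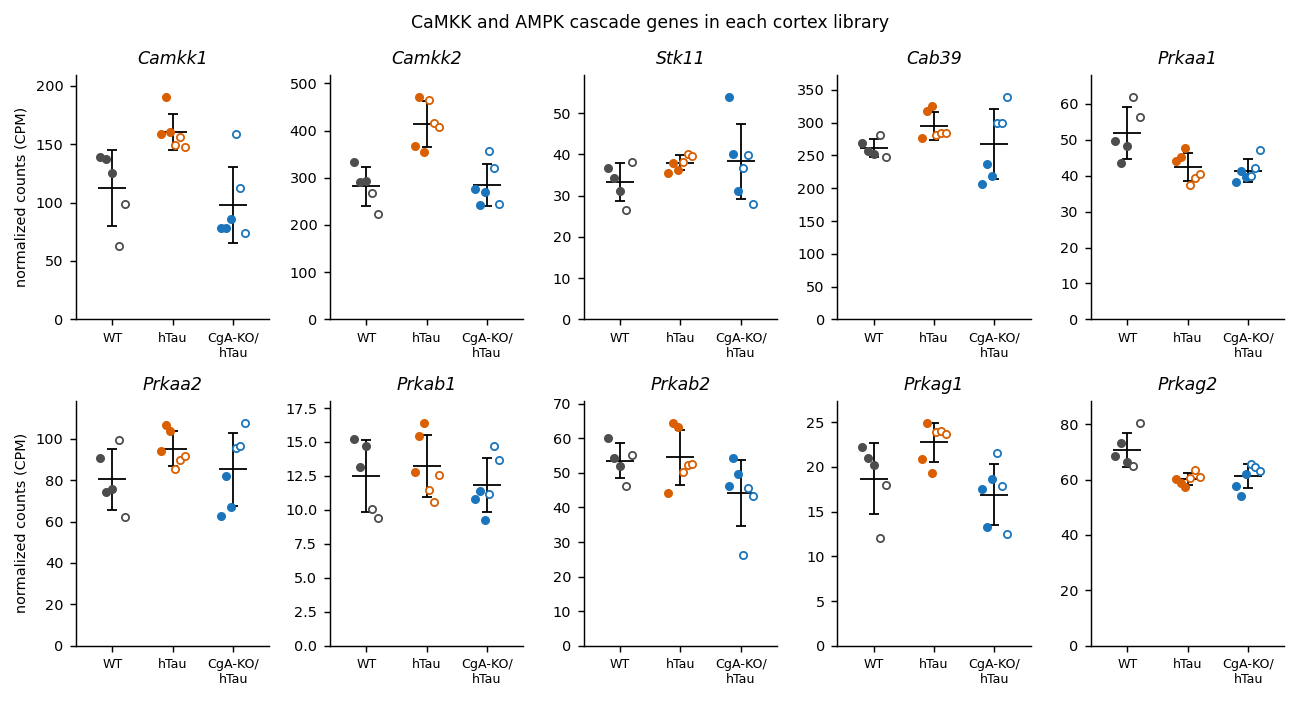
CPM of each member in every library by genotype, with a black line for the mean and error bars of 1 SD. Filled points are libraries with Ddx3y counts (replicates 1 to 3) and open points those without. In Camkk1 and Camkk2 all hTau points are above all WT points, and CgA-KO/hTau replicate 4 is the highest CgA-KO/hTau point in both.

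The CaMKK differences moved with measures of the libraries. The CgA-KO/hTau library with the highest Camkk1 and Camkk2, replicate 4, also had the lowest share of mitochondrial counts of its genotype, 3.84%. With the mitochondrial share as a covariate, a fit chosen after seeing the data, the log2 fold change in CgA-KO/hTau minus hTau was 0.02 for Camkk1 (edgeR unadjusted p = 0.930) and −0.29 for Camkk2 (edgeR adjusted p = 0.838), so neither call held. That share is itself higher in 5 of the 6 CgA-KO/hTau libraries than in every hTau library, and the share and the genotype can therefore be told apart only in part. In hTau minus WT the same fit gave Camkk2 a log2 fold change of 0.50 (edgeR adjusted p = 0.0126). With the striatum marker level as a covariate Camkk2 stood at 0.39 in hTau minus WT (edgeR adjusted p = 0.160) and at −0.47 in CgA-KO/hTau minus hTau (edgeR adjusted p = 0.0391), and Camkk1 at −0.60 in the latter (edgeR adjusted p = 0.0941). All 5 WT libraries had more striatum marker counts than all 6 hTau libraries, so that in hTau minus WT this covariate and the genotype are also hard to separate. Marker sums of some other cell types also differed between genotypes. Within CgA-KO/hTau, replicates 1 to 3 held 78.0 to 86.0 CPM of Camkk1, with GABAergic interneuron marker sums of 615 to 652 CPM. Replicates 4, 5 and 6 held 158, 113 and 74.1 CPM of Camkk1, with sums of 951, 945 and 972 CPM. The 6 markers of GABAergic interneurons summed to 615 to 972 CPM in CgA-KO/hTau, below every hTau library (1066 to 1230 CPM) and every WT library (1031 to 1370 CPM). The 7 markers of oligodendrocytes summed to 1580 to 3035 CPM in CgA-KO/hTau, 1278 to 1852 in hTau and 1146 to 1882 in WT, and were highest in CgA-KO/hTau replicates 1 to 3. Markers of astrocytes, microglia and endothelium overlapped between all genotypes, and those of choroid plexus summed to at most 10.2 CPM in both transgenic genotypes and reached 1070 CPM in WT replicate 5, the library without which the Camkk2 call in hTau minus WT was lost. The part of these cell types in the CaMKK differences was not tested.

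**Figure D4:**
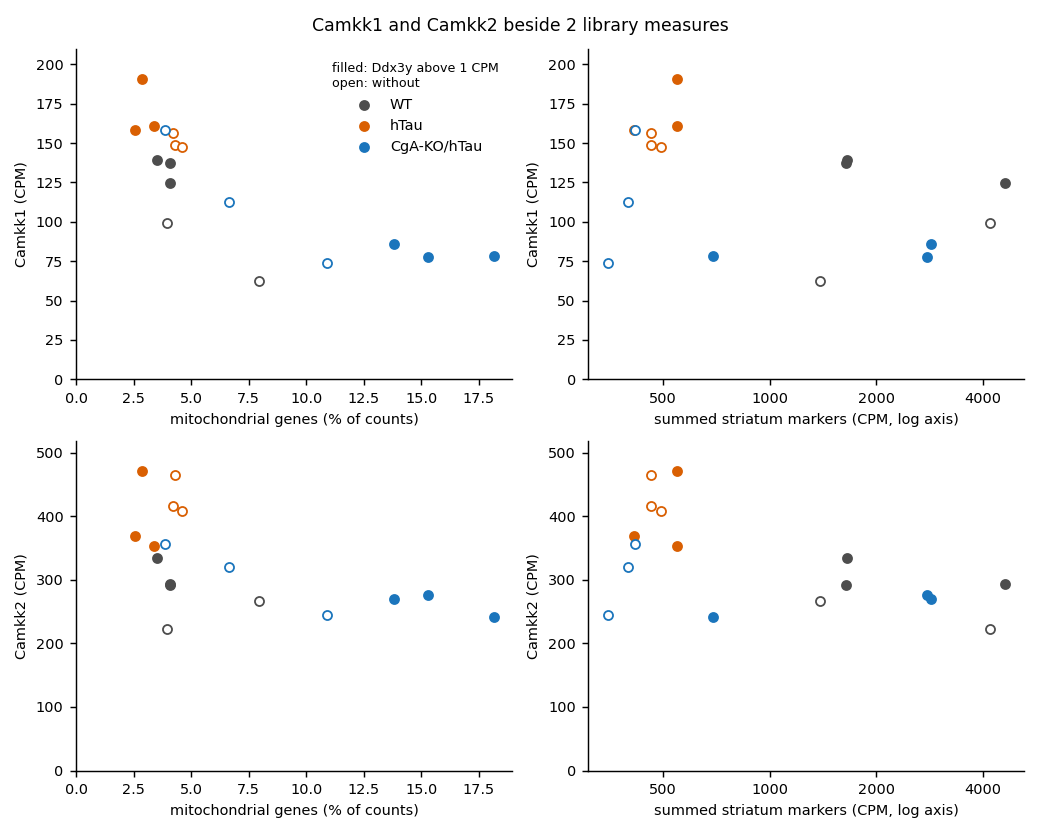
CPM of Camkk1 (top) and Camkk2 (bottom) in each of the 17 libraries against the percent of counts in mitochondrial genes (left) and the summed CPM of 15 striatum markers on a log axis (right). The CgA-KO/hTau libraries spread from 3.84% to 18.2% mitochondrial counts, and the one at 3.84% has the highest Camkk1 and Camkk2 of its genotype.

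Since every hTau library exceeded every WT library in Camkk2, the same held within each Ddx3y class by necessity. Within the libraries that held Ddx3y counts, and likewise within those that did not, Camkk2 was lower in every CgA-KO/hTau library than in every hTau library. The share of all genes that separated in this way within a class was not counted. With Ddx3y, Camkk2 was at 291 to 334 CPM in WT, 354 to 472 in hTau and 241 to 275 in CgA-KO/hTau. Without Ddx3y it was at 223 to 267, 408 to 465 and 244 to 356 CPM. Camkk1 in CgA-KO/hTau was below hTau in all libraries with Ddx3y, 78.0 to 86.0 against 158 to 190.5 CPM, and overlapped with hTau in those without, 74.1 to 158 against 148 to 156 CPM.

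The CaMKK calls did not hold with the closest libraries averaged. Replicates 4 to 6 of hTau and replicates 1 and 3 of CgA-KO/hTau were the libraries closest to each other within a genotype, with an SD of log2 ratios of 0.22 to 0.25 over 3761 genes against 0.26 to 0.68 in the other pairs. With each of these sets averaged into 1 library, log2 fold changes were 0.52 for Camkk2 in hTau minus WT (edgeR adjusted p = 0.0887), −0.49 for Camkk2 (edgeR adjusted p = 0.121) and −0.70 for Camkk1 (edgeR adjusted p = 0.159) in CgA-KO/hTau minus hTau.

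Stk11 and Cab39, the LKB1 branch, had no called difference between genotypes. Stk11 (ENSMUSG00000003068.18, chr10:80115803-80130682, plus strand), the kinase of the branch, held 36.7, 34.2, 31.0, 26.6 and 38.0 CPM in WT, with hTau libraries at 35.6, 38.1 and 40.1 CPM (lowest, median, highest) and CgA-KO/hTau libraries at 27.9, 38.2 and 53.9 CPM. The 3 groups overlapped, and the log2 fold changes were 0.18 in hTau minus WT (95% interval −0.11 to 0.47), 0.01 in CgA-KO/hTau minus hTau (−0.26 to 0.29) and 0.20 in CgA-KO/hTau minus WT (−0.09 to 0.49). Cbarp, which overlaps Stk11 on the other strand, was at 212 ± 54.4 CPM in WT (SD, n = 5), 257 ± 7.32 in hTau and 197 ± 57.1 in CgA-KO/hTau (SD, n = 6 each). Cab39 (ENSMUSG00000036707.17, chr1:85793441-85851576, plus strand), the MO25α scaffold, was among the most even members in WT at 247 to 281 CPM, with 277 to 326 CPM in hTau and 207 to 340 CPM in CgA-KO/hTau. Its log2 fold changes were 0.17 in hTau minus WT (95% interval −0.07 to 0.42) and −0.14 in CgA-KO/hTau minus hTau (−0.38 to 0.09).

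Neither catalytic subunit had a difference that the main edgeR fit called. Prkaa1 (α1, ENSMUSG00000050697.10, chr15:5143861-5181899, plus strand) held 49.8, 43.5, 48.2, 61.9 and 56.3 CPM in WT, against 37.5, 42.2 and 47.6 CPM (lowest, median, highest) in hTau and 38.1, 40.7 and 47.2 CPM in CgA-KO/hTau. Both transgenic groups were lower on average and overlapped WT only at its lower end. With Ddx3y, hTau was at 44.0 to 47.6 against 43.5 to 49.8 CPM in WT, a mean log2 difference of −0.05. Without Ddx3y it was at 37.5 to 40.4 CPM against 56.3 to 61.9 CPM in 2 WT libraries, a mean log2 difference of −0.60. For CgA-KO/hTau minus WT these differences were −0.24 and −0.46. The log2 fold changes were −0.29 in hTau minus WT (SE 0.10, edgeR adjusted p = 0.0900) and −0.32 in CgA-KO/hTau minus WT (SE 0.10, edgeR adjusted p = 0.0566), neither past the threshold. DESeq2 called both (adjusted p = 0.0443 and 0.0347). The first was also called by limma voom with sample quality weights (−0.26, adjusted p = 0.0283). EdgeR called it with at least 10 counts in every library (−0.31, adjusted p = 0.0470), and the other 29 of 32 alternatives did not. The second was also called by edgeR without WT replicate 2 (−0.38, adjusted p = 0.0356) or without CgA-KO/hTau replicate 6 (−0.36, adjusted p = 0.0322). CgA-KO/hTau minus hTau was −0.03 with a 95% interval of −0.23 to 0.16. Prkaa2 (α2, ENSMUSG00000028518.9, chr4:105029874-105109890, minus strand) held 90.7, 74.4, 75.6, 99.5 and 62.1 CPM in WT, 85.2, 93.0 and 107 CPM in hTau and 62.9, 88.8 and 108 CPM in CgA-KO/hTau. All 3 groups overlapped, with log2 fold changes of 0.25 in hTau minus WT (95% interval −0.06 to 0.55) and −0.16 in CgA-KO/hTau minus hTau (−0.45 to 0.13). Prkaa2 had higher counts than Prkaa1, but per kb of exons the WT means were 10.1 for Prkaa2 and 11.2 for Prkaa1. In hTau and CgA-KO/hTau the mean per kb of Prkaa2 was the higher one.

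The β scaffolds showed no called difference. Prkab1 (β1, ENSMUSG00000029513.15, chr5:116013586-116024508, minus strand) was at 9.37 to 15.2 CPM in WT, 10.6 to 16.4 in hTau and 9.27 to 14.7 in CgA-KO/hTau. Its log2 fold changes were 0.08 in hTau minus WT and −0.16 in CgA-KO/hTau minus hTau, with 95% intervals of −0.26 to 0.41 and −0.48 to 0.15. Prkab2 (β2, ENSMUSG00000038205.13, chr3:97658193-97673812, plus strand) was at 46.2 to 60.0 CPM in WT, 44.1 to 64.4 in hTau and 26.4 to 54.3 in CgA-KO/hTau. The lowest of these, CgA-KO/hTau replicate 4 at 26.4 CPM, stood well under the next CgA-KO/hTau library at 43.3 CPM. Its log2 fold change in CgA-KO/hTau minus hTau was −0.30 (SE 0.14, edgeR adjusted p = 0.174) and −0.18 without that library.

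Neither nucleotide-sensing γ subunit had a difference that the main edgeR fit called. Prkag1 (γ1, ENSMUSG00000067713.8, chr15:98812797-98831521, minus strand) held 22.2, 21.0, 20.2, 12.1 and 18.0 CPM in WT, 19.3, 23.8 and 24.9 CPM (lowest, median, highest) in hTau and 12.5, 17.7 and 21.5 CPM in CgA-KO/hTau. Its log2 fold changes were 0.28 in hTau minus WT (SE 0.16, edgeR adjusted p = 0.329) and −0.43 in CgA-KO/hTau minus hTau (SE 0.15, edgeR adjusted p = 0.0701). The second was called by DESeq2 (adjusted p = 0.0420), by limma voom with sample quality weights (adjusted p = 0.00831) and by edgeR on only these genotypes (adjusted p = 0.0481). It was also called by edgeR without WT replicate 4 (−0.43, adjusted p = 0.0274) or without CgA-KO/hTau replicate 4 (−0.50, adjusted p = 0.0288). The antisense gene B130046B21Rik was at 11.1 ± 1.52 CPM in WT (SD, n = 5), 11.2 ± 1.08 in hTau and 9.80 ± 1.53 in CgA-KO/hTau (SD, n = 6 each). Prkag2 (γ2, ENSMUSG00000028944.15, chr5:24862744-25100642, minus strand) held 68.7, 73.3, 66.2, 64.9 and 80.4 CPM in WT, 57.5, 60.4 and 63.6 CPM in hTau and 54.1, 62.6 and 65.6 CPM in CgA-KO/hTau. Every hTau library was below every WT library, as in 4.39% of all genes, yet the difference missed the threshold after adjustment (log2 fold change −0.23, SE 0.08, edgeR adjusted p = 0.0871). DESeq2 and limma voom with sample quality weights called it, with adjusted p of 0.0133 and 0.0128. EdgeR called it with at least 10 counts in every library, with counts divided by 3 and with the mitochondrial covariate (adjusted p = 0.0269, 0.0427 and 0.0325). The other 27 of 32 alternatives did not call it. CgA-KO/hTau stood at −0.21 against WT (SE 0.08, edgeR adjusted p = 0.116) and at 0.02 against hTau (95% interval −0.13 to 0.18).

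Because the scaling of a library cancels in a ratio, paralogues were also compared within each library as log2 ratios of their counts, in 4 pairs and 3 comparisons with two-sided exact permutation tests adjusted over all 12. The smallest exact permutation p that the design allows is 0.00216 in each comparison. The ratio of Prkaa1 to Prkaa2 was −0.87, −0.77, −0.65, −0.68 and −0.14 in the WT libraries, −1.25, −1.18 and −1.10 (lowest, median, highest) in hTau and −1.25 to −0.72 in CgA-KO/hTau. All hTau libraries were below all WT libraries, with means of −1.17 ± 0.05 (SD, n = 6) and −0.62 ± 0.28 (SD, n = 5), a difference of −0.55 (exact permutation p = 0.00216, adjusted p = 0.00866). CgA-KO/hTau differed from hTau by 0.15 (exact permutation, adjusted p = 0.385) and from WT by −0.39 (exact permutation, adjusted p = 0.0974). In the fit with the striatum marker level as a covariate, Prkaa1 and Prkaa2 stood at −0.41 and −0.32 in hTau minus WT, so that their fold changes were close to each other there, against −0.29 and 0.25 without it.

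The ratio of Prkag1 to Prkag2 was −1.63, −1.80, −1.71, −2.42 and −2.16 in the WT libraries, −1.57 to −1.23 in hTau and −2.34 to −1.61 in CgA-KO/hTau. All hTau libraries were above all libraries of both other genotypes. The difference was 0.54 in hTau minus WT (exact permutation p = 0.00216, adjusted p = 0.00866) and −0.47 in CgA-KO/hTau minus hTau (exact permutation p = 0.00216, adjusted p = 0.00866), whereas CgA-KO/hTau and WT differed by 0.06 (exact permutation, adjusted p = 0.796). With the mitochondrial share as a covariate, Prkag1 and Prkag2 stood at −0.08 and 0.15 in CgA-KO/hTau minus hTau, against −0.43 and 0.02 without it. With the striatum marker level as a covariate they stood at 0.38 and −0.28 in hTau minus WT, against 0.28 and −0.23. The ratios of Camkk1 to Camkk2 and of Prkab1 to Prkab2 were not called in any comparison, with differences of −0.22 to 0.0045 and 0.07 to 0.23. Only without CgA-KO/hTau replicate 4 was Camkk1/Camkk2 called in CgA-KO/hTau minus hTau (−0.30, exact permutation, adjusted p = 0.0390). With the closest libraries averaged, the 3 called ratio differences had an exact permutation adjusted p of 0.0714 each, at differences of −0.54, 0.52 and −0.48.

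**Figure D5:**
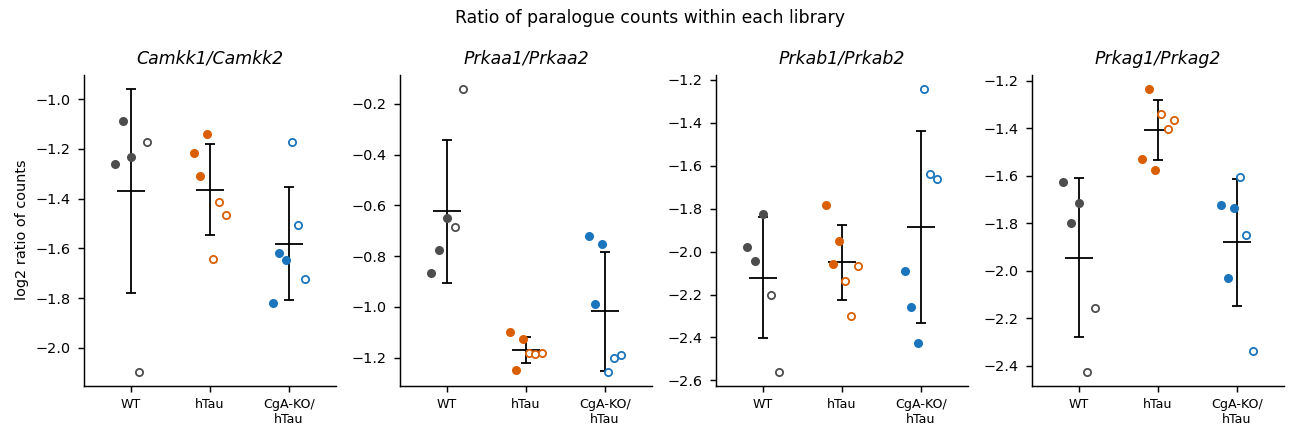
Log2 ratio of the counts of 4 paralogue pairs in each library by genotype, with a black line for the mean and error bars of 1 SD, filled points for libraries with Ddx3y counts and open points for those without. The hTau points of Prkaa1/Prkaa2 lie at −1.25 to −1.10, below all WT points, and those of Prkag1/Prkag2 at −1.57 to −1.23, above all points of both other genotypes.

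The difference between CgA-KO/hTau and hTau was not the same in libraries with and without Ddx3y for 3 members. In an edgeR fit with 1 mean per genotype and class, chosen after seeing the data, the term for the difference between the classes was called for Cab39, Prkaa2 and Prkab1, 3 of 10 members against 10.1% of 25557 genes. Cab39 in CgA-KO/hTau was at 207 to 238 CPM against 277 to 326 CPM in hTau with Ddx3y, and at 299 to 340 CPM against 281 to 284 CPM without it (difference of log2 fold changes −0.63, SE 0.13, edgeR adjusted p = 0.00677). Prkaa2 was at 62.9 to 82.1 against 94.3 to 107 CPM with Ddx3y and at 95.5 to 108 against 85.2 to 91.7 CPM without it (−0.71, SE 0.21, edgeR adjusted p = 0.0454). For Prkab1 the term was −0.71 (SE 0.20, edgeR adjusted p = 0.0326), with 9.27 to 11.4 against 12.8 to 16.4 CPM and 11.2 to 14.7 against 10.6 to 12.6 CPM. In each of the 3 genes the mean CgA-KO/hTau level was below that of hTau with Ddx3y and above it without. The 3 CgA-KO/hTau libraries with Ddx3y had 13.8% to 18.2% mitochondrial counts and the 3 without had 3.84% to 10.9%. Marker sums split these libraries in the same way, with striatum at 690 to 2845 against 350 to 416 CPM. GABAergic interneuron markers were at 615 to 652 against 945 to 972 CPM, and oligodendrocyte markers at 2605 to 3035 against 1580 to 1686 CPM. The class, the mitochondrial share and the tissue makeup therefore cannot be told apart within the genotype. In CgA-KO/hTau minus WT the term was called for Camkk1 (−1.25, SE 0.32, edgeR adjusted p = 0.0403) and Prkab1 (−0.92, SE 0.21, edgeR adjusted p = 0.0244), 2 of 10 members against 4.82% of genes. In hTau minus WT it was called for none of the 10 by edgeR, against 0.0509% of genes. Prkaa1 alone was at an unadjusted p under 0.05 there (0.54, edgeR unadjusted p = 0.00138, adjusted p = 0.287).

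Around the cascade, 5 lists of pathway genes were examined. Of 15 genes of AMPK substrates, 2 were higher in hTau than in WT, where 1.95% of all genes were called higher, and 2 were lower in CgA-KO/hTau than in hTau, where 4.22% were called lower, with medians of 0.13 and −0.02 against 0.01 and 0.03 over all genes. Foxo3, a transcription factor that AMPK phosphorylates, was at 103 to 154 CPM in WT, 166 to 185 in hTau and 109 to 156 in CgA-KO/hTau. Its hTau libraries were above all others (log2 fold change 0.49, SE 0.11, edgeR adjusted p = 0.0148 against WT, and −0.43, SE 0.11, edgeR adjusted p = 0.0203 for CgA-KO/hTau minus hTau). In 5.13% of all genes every hTau library was above every WT library, and the share against CgA-KO/hTau is not given here. Tbc1d1, a Rab GTPase-activating protein of glucose transporter traffic, was higher in hTau than in WT (0.42, SE 0.12, edgeR adjusted p = 0.0458). Ulk1, a kinase that starts autophagy, was lower in CgA-KO/hTau than in hTau (−0.37, SE 0.10, edgeR adjusted p = 0.0301), with 99.1 to 108 CPM in hTau, 62.8 to 92.3 in CgA-KO/hTau and 62.0 to 93.8 in WT.

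Of 12 AMPK-related kinases, 1 was lower and 1 higher in CgA-KO/hTau than in hTau, where 9.72% of all genes were called in either direction. None was called by edgeR in hTau minus WT or in CgA-KO/hTau minus WT, with 4 and 2 at an unadjusted p under 0.05. Mark1, a kinase of microtubule-associated proteins, had a log2 fold change of −0.33 (SE 0.08, edgeR adjusted p = 0.0142) and Sik2, a salt-inducible kinase, one of 0.35 (SE 0.10, edgeR adjusted p = 0.0317). Of 8 AMPK regulators, only Sesn1, a stress-responsive sestrin, was called, lower in CgA-KO/hTau than in hTau (−0.26, SE 0.07, edgeR adjusted p = 0.0275), against the same 4.22% of all genes. Of 8 calmodulin and CaM kinase genes, 1 was called higher and 1 lower in CgA-KO/hTau than in WT, against 6.46% of all genes in either direction. The lower gene was Camk1d, a CaM kinase downstream of the CaMKKs (−0.29, SE 0.08, edgeR adjusted p = 0.0397). None of the 8 was called by edgeR in hTau minus WT or in CgA-KO/hTau minus hTau, with 2 and 4 at an unadjusted p under 0.05. The list of other AMPK subunit and LKB1 complex genes had 4 of its 5 genes tested, of which edgeR called none in any comparison, with 1, 2 and 2 at an unadjusted p under 0.05.

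Among the genes whose levels ran closest to Camkk2, by Pearson's r of log2(CPM + 1) over the 17 libraries among 15467 genes with a mean of at least 1 CPM, were Nat8l (0.948), Acta1 (0.942), Osbpl5 (0.940) and Extl3 (0.939). All 17 points share the depth, the mitochondrial share and the tissue makeup of their libraries, so these values are a description. Nat8l, which makes N-acetylaspartate, was at 302 ± 93.4 CPM in WT (SD, n = 5), 624 ± 72.7 in hTau and 336 ± 101 in CgA-KO/hTau (SD, n = 6 each). In Nat8l, as in Camkk2, the hTau mean was the highest and the other means were close to each other. Nat8l was chosen by its correlation with Camkk2, so this likeness is not a separate observation.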

How the data were processed

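Polyadenylated RNA of prefrontal cortex was sequenced as paired reads from mRNA libraries. Per the submitters' processing notes and the study's methods, the authors checked reads with FastQC, trimmed them with Trimmomatic 0.39, aligned them to mm10 with STAR 2.7.10b, quantified them with StringTie 1.3.6 and ran prepDE, and the values they deposited are gene counts in whole numbers. These deposited counts are derived from coverage with a read length that is not stated. Counts of 3 and of 6 were more frequent than the counts beside them, so about 3 counts may stand for 1 fragment, in which case counting error is larger than the totals imply. Annotation release and strand are not given in the sources used here.

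These values entered edgeR 4.0.16 (R 4.3.3) unchanged (TMM, filterByExpr by genotype, quasi-likelihood test, 1 mean per genotype over 17 libraries, common biological coefficient of variation 0.316), with Benjamini-Hochberg adjustment. Exon lengths and coordinates came from GENCODE M21 (GRCm38), matched by identifier without version. Paralogue ratios were tested by 2-sided exact permutation. The alternatives were DESeq2 1.42.0, its size factors, other filters on low counts, limma 3.58.1 voom with sample quality weights (limma voom in the text), a robust fit, only the genotypes compared, the replicate number as a block, counts divided by 3, no mitochondrial genes, closest libraries averaged, covariates, and each library left out in turn. The excitatory marker and mitochondrial covariates and the fit by genotype and Ddx3y class (25557 genes passing the filter) were added after seeing the data. On simulated counts for hTau minus WT over 22934 genes, edgeR recovered 40 of 100 genes changed by a log2 fold change of 1 and 80 of 100 changed by 2, with 9 false calls. Members and lists were chosen with earlier results of these data known. Genes named are the members, every list gene called at an adjusted p under 0.05 (at most 8 per list), Chga and Prnp as checks of the genotype, and the 5 genes closest to Camkk2. Some genes that this rule names are not reported here. Mapt, the third check, is the mouse gene of tau and was at 595.6 ± 228 CPM in WT (SD, n = 5), 868 ± 42.8 in hTau and 705 ± 118 in CgA-KO/hTau (SD, n = 6 each). Same-numbered libraries did not deviate together (correlations of −0.23 to 0.44 over 16 pairs). Protein sequences were not used here. Figures were drawn with matplotlib 3.10.9.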

Additional observations from a re-analysis of the deposited data

Results flagged for a closer look

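Camkk1 in hTau replicate 2, at 190.5 CPM, lay far above the other 5 hTau libraries (148 to 161 CPM), and the log2 ratio of Camkk1 to Camkk2 in WT replicate 4, at −2.10, lay far below the other 4 WT libraries (−1.26 to −1.09). These were 2 of 42 groups of values examined by Dixon's gap, and chance flags about 1 in 20 groups.

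Genotype differences that were unlike in libraries with and without Ddx3y, by the interaction term of the edgeR fit, were those of Prkaa2 (−0.71), Prkab1 (−0.71) and Cab39 (−0.63) in CgA-KO/hTau minus hTau and those of Camkk1 (−1.25) and Prkab1 (−0.92) in CgA-KO/hTau minus WT, each as the log2 fold change with Ddx3y minus that without. The log2 ratio of Prkaa1 to Prkaa2 differed between CgA-KO/hTau and hTau by 0.34 with Ddx3y and by −0.030 without. The log2 ratio of Prkab1 to Prkab2 differed by −0.33 and 0.65 in CgA-KO/hTau minus hTau and by −0.31 and 0.87 in CgA-KO/hTau minus WT. In these 3 ratio comparisons all libraries lay on opposite sides in the 2 classes, and the difference between the classes was not tested. For Prkaa1 to Prkaa2 the sides without Ddx3y nearly touched, at −1.254 to −1.188 in CgA-KO/hTau and −1.186 to −1.182 in hTau.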

How the results depend on the processing

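Of 960 member values under alternatives, 875 kept their direction and side of the threshold, 18 lost and 19 gained a call, and 48 turned direction. The cause was not tested. In hTau minus WT, where 1 member was called, the count was 3 with DESeq2, with at least 10 counts in every library and with limma voom, 2 with counts divided by 3 and with the mitochondrial covariate, and 0 with the closest libraries averaged and with the striatum covariate. It was 0 to 1 with 1 library left out, being 0 without WT replicate 5. Where 2 were called, in CgA-KO/hTau minus hTau, the count was 3 with DESeq2, limma voom and only the genotypes compared, each with Prkag1 added, 1 with the striatum and excitatory covariates, 0 with averaged libraries and the mitochondrial covariate, and 1 to 3 with 1 library left out. Where 0 were called, in CgA-KO/hTau minus WT, the count was 1 with DESeq2, limma voom and the striatum and excitatory covariates, and 0 to 1 with 1 library left out. Called ratios fell from 2 to 0 in hTau minus WT and from 1 to 0 in CgA-KO/hTau minus hTau with averaged libraries, and the latter was 1 to 2 with 1 library left out, being 2 without CgA-KO/hTau replicate 4.

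The replicate number was also used as a block, although the numbers did not pair the libraries (3 of 17 libraries were closest to one of the same number). With it, 1 member was called in CgA-KO/hTau minus hTau, Camkk2 at −0.54 (edgeR adjusted p = 0.0459). Camkk1 at −0.72 was not called (edgeR adjusted p = 0.0913). Under the block Stk11 turned to −0.015 in that comparison and Cab39 to −0.015 in CgA-KO/hTau minus WT.

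Other log2 fold changes that turned direction were, in hTau minus WT, Prkab1 at −0.042 and Prkab2 at −0.032 with limma voom, Prkaa2 at −0.32, Prkab1 at −0.21 and Cab39 at −0.27 with the striatum covariate, and Prkaa2 at −0.0047 and Prkab1 at −0.10 with the excitatory covariate. In CgA-KO/hTau minus hTau they were Prkag2 at −0.028 and Stk11 at −0.042 without a filter, Prkaa1 at 0.028 with at least 10 counts, Prkag2 at −0.022 with limma voom and Stk11 at −0.035 with averaged libraries. With the striatum covariate Prkaa1 was at 0.017, Prkaa2 at 0.053, Stk11 at −0.097 and Cab39 at 0.022, with the excitatory covariate Stk11 was at −0.036, and with the mitochondrial covariate Camkk1 was at 0.015, Prkab1 at 0.12, Stk11 at −0.013 and Cab39 at 0.059. In CgA-KO/hTau minus WT they were Camkk2 at −0.013 without a filter, Camkk2 at −0.030 and Cab39 at −0.038 with limma voom, Camkk2 at −0.084, Prkaa2 at −0.26 and Cab39 at −0.24 with the striatum covariate, Camkk2 at −0.028, Prkaa2 at −0.051 and Cab39 at −0.067 with the excitatory covariate, and Camkk1 at 0.39, Prkab1 at 0.14 and Prkag1 at 0.13 with the mitochondrial covariate.

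With 1 library left out, values that turned direction ranged, in hTau minus WT, from −0.016 to 0.16 for Prkab1, −0.030 to 0.079 for Prkab2, −0.18 to 0.075 for the log2 ratio of Camkk1 to Camkk2 and −0.037 to 0.15 for that of Prkab1 to Prkab2. They ranged from −0.072 to 0.014 for Prkaa1 and −0.11 to 0.091 for Stk11 in CgA-KO/hTau minus hTau, and in CgA-KO/hTau minus WT from −0.058 to 0.081 for Camkk2, −0.047 to 0.097 for Cab39 and −0.056 to 0.16 for the log2 ratio of Prkag1 to Prkag2. Depth limits WT replicate 4 most, with 8838334 counts in all.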
